A study of Mus musculus with 12 samples.

Results

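The Apobec family was examined as 3 genes, Apobec1, Apobec2 and Apobec3, out of 46078 genes in the deposited counts. The group was chosen by the measured change at 30 µg/kg TCDD: Apobec2 had one of the largest rises against vehicle there, ranking 6 of 15823 genes tested. Apobec1 belongs to the group as the enzyme that edits Apob mRNA in enterocytes. The rise of Apobec2 at 30 µg/kg is therefore a description and carries no test below. The same holds for all 3 genes in that comparison, and for Apobec2 at 3 and 10 µg/kg, which share the vehicle libraries with it. Log2 changes between 10 and 3 µg/kg compare other libraries and are tested. The spread used in that test is still estimated from all libraries, those of vehicle and 30 µg/kg included. Just above Apobec2 in the order of rises stood Ces1b with a log2 change of 4.38, and just below it stood Ahrr with 3.85.

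Proteins of the Apobec family share a zinc-binding cytidine deaminase fold. Apobec1 deaminates a cytidine of Apob mRNA in the small intestine and so creates a stop codon, which gives the short apolipoprotein B that chylomicrons carry. Apobec3 deaminates viral DNA during reverse transcription and restricts retroviruses. Apobec2 is best known from skeletal and heart muscle, and an editing substrate for it is not established.

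RNA was sequenced from scraped proximal ileal epithelium of male C57BL/6 mice, 3 libraries per group and 12 in all. TCDD, the dioxin used here, is a ligand of the aryl hydrocarbon receptor (AhR), a transcription factor. All mice were gavaged 7 times, 1 dose every 4 days, from 28 days of age, and ended the study at 56 days. They received sesame oil alone (vehicle) or TCDD at 3, 10 or 30 µg/kg in that oil, and the labels list no genetic change. Scrapings hold more than enterocytes, and in such bulk RNA a change in the share of a cell type and a change in RNA per cell cannot be told apart. The labels give no replicate numbers and do not state that libraries came from separate animals, so the replicate numbers used here only name libraries, and p-values measure the spread between these libraries.

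Apobec2 (ENSMUSG00000040694) lies on the minus strand of chr17:48419231-48432930 in build GRCm38, with 1597 bases of annotated exon and no overlapping gene. Its promoter window runs from 250 bases before to 50 bases after the start annotated in RefSeq, which lies inside the GENCODE M21 span just given. The window is shown because the gene moved with the dose of an AhR ligand. Capitals mark the letters TATAAA and CAGCTG.
Apobec2, chr17:48432679-48432978, minus strand: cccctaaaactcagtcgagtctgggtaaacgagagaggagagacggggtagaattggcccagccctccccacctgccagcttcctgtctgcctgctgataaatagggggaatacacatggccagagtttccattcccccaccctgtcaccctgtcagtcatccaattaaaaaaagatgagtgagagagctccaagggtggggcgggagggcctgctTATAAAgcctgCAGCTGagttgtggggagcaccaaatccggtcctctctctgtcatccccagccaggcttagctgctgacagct
The TATAAA begins at -34 and the CAGCTG, the letters of one kind of E-box, at -23 relative to the RefSeq start. Searched on both strands, the former occurs in 13.6% and the latter in 16.3% of 32851 RefSeq promoter windows of the same length. Both motifs were picked after the sequence had been read. The core of the dioxin response element, GCGTG or its reverse complement CACGC, was in none of the windows of Apobec1, Apobec2 and Apobec3 (4 windows, 2 of them for Apobec3), and in 32.4% of all windows. The window of Cyp1a1, a standard AhR target, holds one at -54. These matches describe letters in a short window and say nothing about sites elsewhere. The RefSeq starts of Apobec2 and Apobec3 lie inside their GENCODE spans, so the bases upstream of those spans were largely not searched.

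Apobec1 (ENSMUSG00000040613) lies on the minus strand of chr6:122577792-122602444 and Apobec3 (ENSMUSG00000009585) on the plus strand of chr15:79891659-79915906. The last 100 bases of Apobec3 overlap Cbx7 on the opposite strand, and the strand setting of the read counting is not given in the sources used here, so the counts of Apobec3 are uncertain to that extent.

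Depth ranged from 11695887 to 22180274 gene counts per library, and the shallowest library was replicate 2 of 30 µg/kg. A count of 3, taken as the detection floor, equalled 0.139 to 0.267 CPM (counts scaled to library size with TMM factors). Enterocyte markers were abundant, with all 8 above 915 CPM in vehicle on average, and none was called at any dose. The ileal markers Fabp6 and Slc10a2 summed to at most 2.73 CPM in the vehicle, 10 and 30 µg/kg libraries but to 28.4 to 54.8 CPM at 3 µg/kg. The 3 µg/kg libraries therefore stood apart in ileal markers, and the part of this in comparisons with 3 µg/kg was not tested. Reads that fell in no gene made up 39.4% to 41.1% of uniquely placed reads at 30 µg/kg and 43.5% to 45.0% in vehicle.

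The group mean of Apobec2 rose with dose from a level near the detection floor. The vehicle libraries held 16, 7 and 7 counts, equal to 0.903, 0.324 and 0.368 CPM. At 3 µg/kg the 3 libraries held 8, 29 and 19 counts, or 0.604, 1.69 and 1.12 CPM. One of these lay below the highest vehicle library, so the groups overlapped. At 10 µg/kg the counts were 28, 67 and 89, or 2.02, 4.86 and 5.45 CPM. At 30 µg/kg they were 209, 23 and 186, or 10.7, 2.04 and 10.2 CPM. Every library at 10 and 30 µg/kg lay above every vehicle and every 3 µg/kg library, while replicate 2 of 30 µg/kg fell to the level of the lowest 10 µg/kg library.

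**Figure D1:**
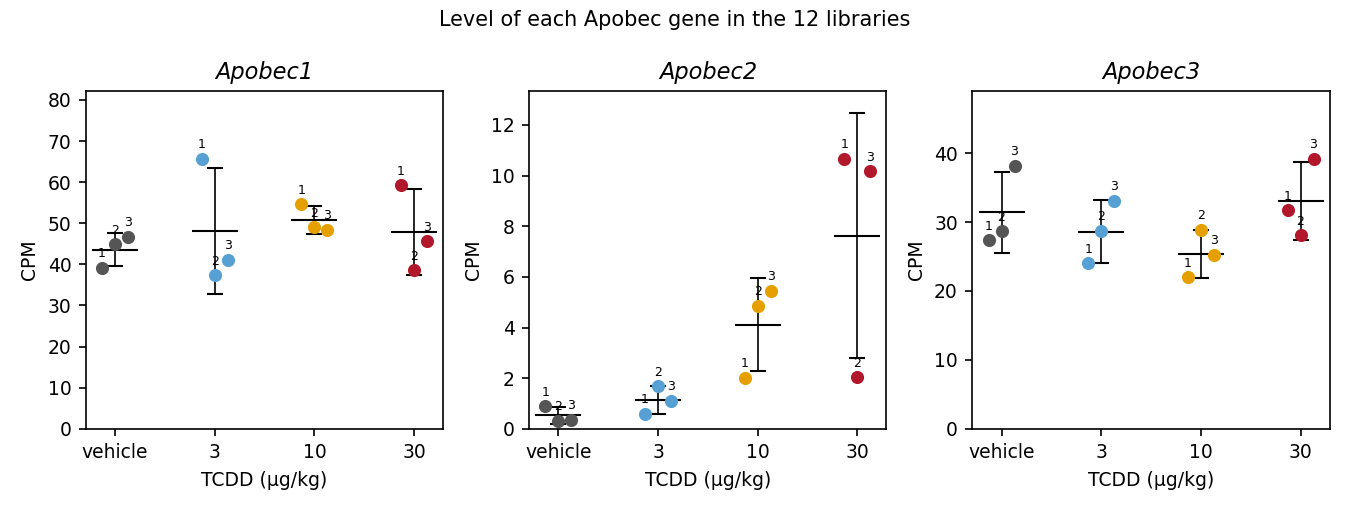
Level of Apobec1, Apobec2 and Apobec3 in CPM (vertical axis from 0, scaled per gene) by TCDD dose in µg/kg, with 1 numbered point per library and the mean and SD of each group in black (n = 3). Apobec2 rises from at most 0.903 CPM in vehicle to 10.7 CPM, with replicate 2 of 30 µg/kg at 2.04 CPM, while the treated groups of Apobec1 and Apobec3 overlap vehicle, apart from Apobec1 at 10 µg/kg, which lies above it.

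Counting error was wide at these low counts. The exact 95% Poisson interval of the highest vehicle library was 0.516 to 1.47 CPM, and that of the lowest 10 µg/kg library was 1.34 to 2.91 CPM, so these touched. The interval of replicate 2 of 30 µg/kg, 1.30 to 3.07 CPM, lay wholly below those of the other libraries at that dose, the lower of which began at 8.77 CPM. Such intervals cover counting error only, since the reads carry no molecular identifiers.

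Group means of Apobec2 were 0.531 ± 0.322 CPM (SD, n = 3) in vehicle, then 1.14 ± 0.545, 4.11 ± 1.84 and 7.63 ± 4.85 with rising dose. Against vehicle, its log2 change reached 1.15 (SE 0.73) with 3 µg/kg, 2.97 (SE 0.66) with 10 µg/kg and 3.88 (SE 0.65) with 30 µg/kg, the last equal to a 14.7-fold rise. For all genes tested, 90% of changes at 30 µg/kg lay between -0.71 and 0.78 on the log2 scale. Among all genes, 11.9% had higher libraries without overlap at 10 µg/kg, 14.2% had them at 30 µg/kg, and 3.97% were called at 30 µg/kg, so separation of the libraries alone was common. In rank of expression, Apobec2 moved from percentile 2.81 of the tested genes in vehicle to percentile 40.3 at 30 µg/kg.

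Between 10 and 3 µg/kg, where neither group entered the choice of the gene, Apobec2 was higher at 10 µg/kg in 3 of 3 libraries without overlap. This separation was shared by 3.85% of all genes. Its log2 change was 1.82 (SE 0.61), with an unadjusted edgeR p of 0.0106 and an adjusted p of 1.00 over 15823 genes (quasi-likelihood test). It was thus not among the 0.158% of genes called in that comparison. Over the other settings its adjusted p lay between 0.234 and 1.00, and the change stayed between 1.56 and 2.23. The spread behind the reported SE and p came from all libraries, those of vehicle and 30 µg/kg included. With the compared groups alone the SE was 0.46 and the edgeR adjusted p 0.838. The 3 µg/kg libraries also stood apart in ileal markers, and Fabp6 changed by -7.21 (log2, edgeR adjusted p 1.11e-06) in this comparison. The part of that difference in the Apobec2 change was not tested.

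**Figure D2:**
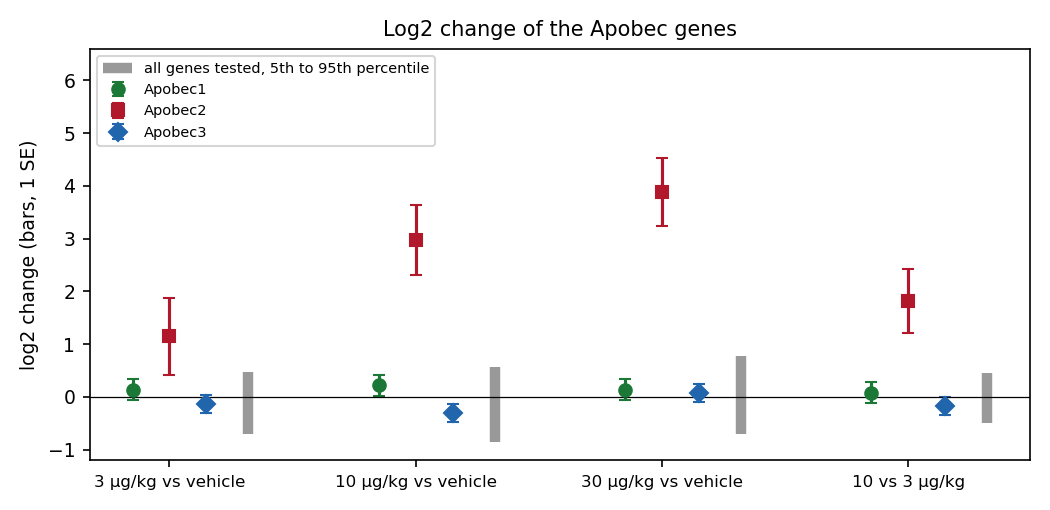
Log2 change of the 3 Apobec genes in each comparison (points, bars of 1 SE), with the range from the 5th to the 95th percentile of all 15823 genes tested as a grey bar. Apobec2 stands above the grey bar in all 4 comparisons, at 1.15, 2.97, 3.88 and 1.82, and Apobec1 and Apobec3 lie inside it.

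Replicate 2 of 30 µg/kg, low in Apobec2, was the highest library of that dose in some AhR targets and the lowest in others. It had 3251 CPM of Cyp1a1, the enzyme that serves as the classical readout of AhR, against 3088 and 2608 CPM in the other libraries of that dose. Tiparp was likewise highest there (110 against 101 and 92.6 CPM). Ahrr (42.4 against 58.1 and 56.1 CPM) and Cyp1b1 (93.0 against 114 and 102 CPM) were lowest there. This library also had the most Acta1, skeletal muscle alpha-actin, with 197 CPM against 121 and 77.0 CPM. Without it, the log2 change of Apobec2 at 30 µg/kg was 4.31. Within that dose the libraries had the same order by Apobec2, Ahrr, Cyp1b1 and sequencing depth. Acta1, Cyp1a1 and every other gene of the AhR list read below ordered them otherwise. So few libraries allow few orders, and the share of all genes with this order is not given, so it is a description only.

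Because Apobec2 is a muscle gene, skeletal muscle markers were read beside it. Of 22 listed markers, 7 had no count in any library (Myh1, Myh2, Myh4, Mb, Myod1, Myog and Pax7), and 5 passed the low-count filter. Acta1 was the only one called, from 3.19 CPM in vehicle to 132 CPM at 30 µg/kg (log2 change 5.38, edgeR adjusted p 1.98e-05), and actin genes share much of their sequence, so its counts are uncertain. The other 21 markers summed to 3.84 to 13.03 CPM in vehicle and 4.89 to 5.46 CPM at 30 µg/kg. The heart marker list summed to at most 3.84 CPM in any library, with 1 of its 8 genes tested and 4 without a count. Beside the rise of Apobec2, no tested marker of skeletal or heart muscle other than Acta1 was called. Most listed markers had too few counts to be tested, and the part of muscle cells in the Apobec2 values was not tested.

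Some markers of other epithelial cells were called at 30 µg/kg. The 5 Paneth cell markers (Lyz1, Defa24, Mptx2, Itln1 and Mmp7) were all called higher at 30 µg/kg, as were 3.08% of all genes, by a median of 1.57 on the log2 scale, and none of them was called at 3 or 10 µg/kg. Their sum went from 662 to 996 CPM in vehicle to 2059 to 2762 CPM. Without replicate 3 of vehicle the calls of Defa24 and Mmp7 were lost (edgeR adjusted p 0.0514 and 0.0694), as was that of Mmp7 without replicate 3 of 30 µg/kg (0.0527). Of 5 goblet cell markers, Tff3 was called higher (log2 change 0.90, edgeR adjusted p 0.00166). The leukocyte list summed to 133 to 214 CPM in vehicle and 145 to 157 CPM at 30 µg/kg. Their part in the Apobec2 values was not tested.

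Circadian clock genes divided the libraries within each dose, and Apobec2 differed along that division in vehicle and at 3 and 10 µg/kg, but not at 30 µg/kg. A score was taken as the mean log2 CPM of Dbp, Tef, Hlf, Nr1d1, Nr1d2, Per2, Per3 and Ciart minus that of Arntl, Npas2 and Clock. It was between 0.14 and 1.34 in 6 libraries and between -4.49 and -2.95 in the other 6. In the 6 libraries with a negative score, Apobec2 had 0.903 CPM in vehicle (1 library), 1.12 to 1.69 CPM at 3 µg/kg (2 libraries), 4.86 to 5.45 CPM at 10 µg/kg (2 libraries) and 10.2 CPM at 30 µg/kg (1 library). In those with a positive score it had 0.324 to 0.368 CPM in vehicle (2 libraries), 0.604 CPM at 3 µg/kg, 2.02 CPM at 10 µg/kg and 2.04 to 10.7 CPM at 30 µg/kg (2 libraries). The doses kept their order in both sets, but the 2.02 and 2.04 CPM of the positive set stood for 28 and 23 counts. Within vehicle, 3 and 10 µg/kg every negative library exceeded every positive one, each time with 1 library on one side. At 30 µg/kg the negative library lay between the positive ones. The share of all genes that separate in this way is not given here. With the score as a covariate, Apobec2 changed by 0.81, 2.50 and 3.93 (log2) over vehicle with rising dose.

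**Figure D3:**
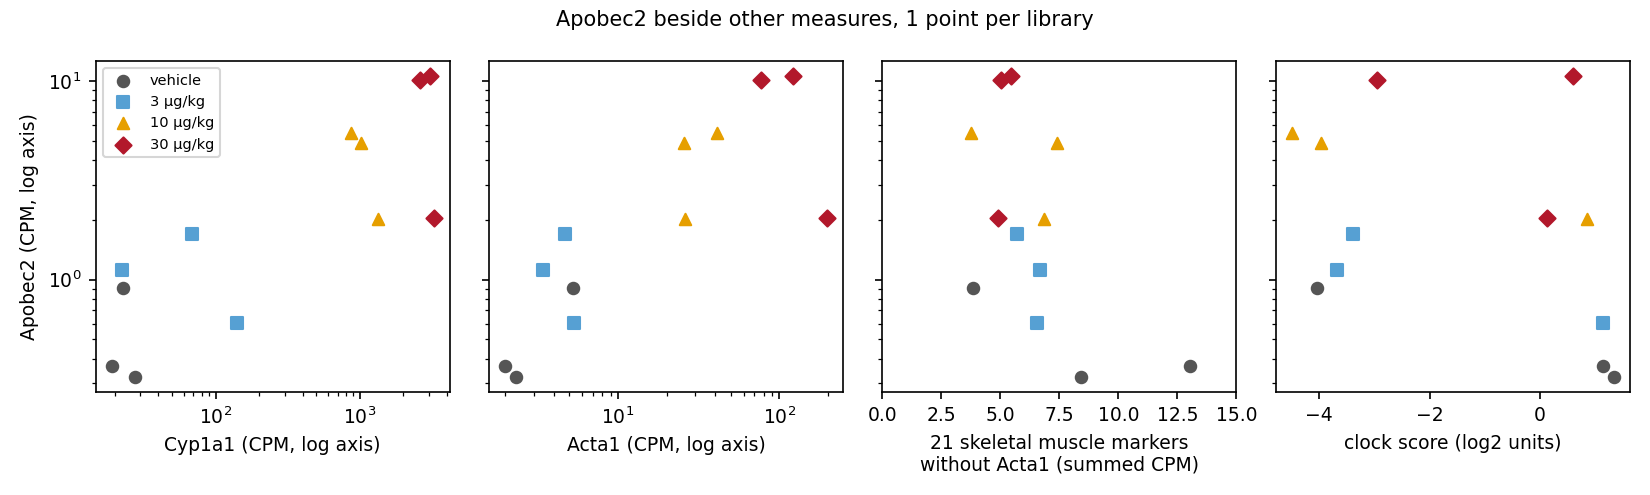
Apobec2 (vertical axis, CPM, log scale) against Cyp1a1 and Acta1 (CPM, log scale), the summed CPM of the 21 other skeletal muscle markers, and the clock score, with 1 point per library and groups by colour and shape. Replicate 2 of 30 µg/kg, the low red diamond at 2.04 CPM, has the highest Cyp1a1 and Acta1, and the marker sum stays between 3.74 and 13.03 CPM in every library.

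Apobec1, the Apob mRNA editing enzyme, was expressed in every library and was not called at 3 or 10 µg/kg. Vehicle libraries had 39.1, 44.9 and 46.7 CPM. At 3 µg/kg the libraries had 65.7, 37.4 and 41.2 CPM, at 10 µg/kg 54.7, 49.0 and 48.4 CPM, and at 30 µg/kg 59.3, 38.6 and 45.7 CPM. The 10 µg/kg libraries all lay above those of vehicle, a separation seen upwards for 11.9% of genes, and the other doses overlapped vehicle. Means were 43.6 ± 3.94 CPM (SD, n = 3) in vehicle, then 48.1 ± 15.4, 50.7 ± 3.43 and 47.8 ± 10.5 with rising dose.

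Apobec1 differed from vehicle by 0.14 on the log2 scale (SE 0.20) at 3 µg/kg, where 0.228% of all genes were called, with an edgeR adjusted p of 0.829. At 10 µg/kg, where 0.613% of genes were called, it differed by 0.22 (SE 0.20) with an edgeR adjusted p of 0.612. At 10 µg/kg the interval of 2 SE on each side ran from -0.17 to 0.61, so a 1.5-fold rise is not outside it. Its change at 30 µg/kg was 0.14 (SE 0.20), and between 10 and 3 µg/kg 0.079 (SE 0.20, edgeR adjusted p 1.00). The value at 3 µg/kg rested on replicate 1, the library at 65.7 CPM, without which it was -0.15, and that at 30 µg/kg was -0.045 without its replicate 1. Between 10 and 3 µg/kg it was -0.067 without replicate 2 and -0.016 without replicate 3 of 3 µg/kg. By clock score, Apobec1 was higher in the positive libraries of vehicle (44.9 and 46.7 against 39.1 CPM), 3 µg/kg (65.7 against 37.4 and 41.2 CPM) and 10 µg/kg (54.7 against 48.4 and 49.0 CPM), but not of 30 µg/kg. Each of these separations had 1 library on one side. The share of all genes that separate so is not given, and the values are descriptions only. With the score as a covariate its change at 10 µg/kg was 0.36 (edgeR adjusted p 0.248).

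Apobec3, the antiretroviral member, was likewise expressed throughout and was not called at those doses. Vehicle libraries had 27.4, 28.7 and 38.1 CPM, and those at 3 µg/kg had 24.0, 28.7 and 33.1 CPM. At 10 µg/kg they had 22.0, 28.9 and 25.2 CPM, and at 30 µg/kg 31.7, 28.1 and 39.2 CPM. All treated groups overlapped vehicle. Means were 31.4 ± 5.88 CPM (SD, n = 3) in vehicle, then 28.6 ± 4.56, 25.4 ± 3.46 and 33.0 ± 5.67 with rising dose.

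Against vehicle, Apobec3 differed by -0.13 on the log2 scale (SE 0.17) at 3 µg/kg, with an edgeR adjusted p of 0.808. With 10 µg/kg the difference was -0.31 (SE 0.17) and the edgeR adjusted p 0.389. The interval of 2 SE at 10 µg/kg ran from -0.65 to 0.03. At 30 µg/kg the change was 0.075 (SE 0.17), and between 10 and 3 µg/kg it was -0.18 (SE 0.17, edgeR adjusted p 1.00). The sign turned at 3 µg/kg without replicate 3 of vehicle (0.016), and at 30 µg/kg without replicate 1 of vehicle (-0.0073) or replicate 3 of 30 µg/kg (-0.068).

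Per kilobase of exon, Apobec1 was the most abundant of the 3 genes in vehicle with 16.1 ± 1.46 CPM per kb (SD, n = 3), followed by Apobec3 with 3.32 ± 0.622 and Apobec2 with 0.333 ± 0.202. The ranges of libraries did not overlap between neighbours in that order. At 30 µg/kg the levels were 17.7 ± 3.90 CPM per kb for Apobec1, 4.78 ± 3.04 for Apobec2 and 3.49 ± 0.5999 for Apobec3, and the latter pair did not differ beyond their spread. The ratio of the mean level of Apobec1 to that of Apobec2 fell from 48.5 in vehicle to 24.99, 7.29 and 3.70 at 3, 10 and 30 µg/kg. Its ratio to Apobec3 was 4.85, 5.88, 7.00 and 5.07. Exon lengths are sums over all annotated transcripts, and the 9454 bases of Apobec3 may exceed what one transcript holds, which lowers its value per kilobase.

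Exon length was read beside the changes. The 950 other protein-coding genes within 20% of the exon length of Apobec2 changed by a median of 0.15 (log2) at 30 µg/kg. Genes of the lengths of Apobec1 and Apobec3 had medians of 0.05 and -0.06.

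The substrate of Apobec1 and its main cofactors were not called. Apob, which encodes apolipoprotein B, averaged 12055 CPM in vehicle and 12933, 12720 and 11479 CPM at 3, 10 and 30 µg/kg, differing by -0.07 on the log2 scale at the top dose (SE 0.18, edgeR adjusted p 0.865). A1cf, the RNA-binding cofactor of Apobec1, averaged 141 CPM in vehicle and 129 CPM at 30 µg/kg (log2 change -0.13, SE 0.19). Rbm47, another cofactor, averaged 777 and 775 CPM.

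Of the 10 genes in the Apob editing list, all were tested, none was called at 3 or 10 µg/kg, and Celf2 alone was called at 30 µg/kg, where 3.97% of all genes were. At an unadjusted edgeR p under 0.05 there were 1, 2 and 4 of the 10 at 3, 10 and 30 µg/kg. The share of all genes at that unadjusted p is not given, so such counts, here and for the lists below, are descriptions only. Celf2, an RNA-binding protein of the CELF family, averaged 17.6 CPM in vehicle and 10.96 CPM at 30 µg/kg (log2 change -0.68, SE 0.18, edgeR adjusted p 0.0385). Its call was lost when any 1 library of the pair of groups other than replicate 1 of vehicle was left out (edgeR adjusted p 0.0729 to 0.152), as well as with the library index sequence as a covariate (0.0814) and with the compared groups alone (0.0679). Dnajb11, a chaperone that binds Apobec1, passed on p alone with 10 and 30 µg/kg (edgeR adjusted p 0.0457 and 0.0178), but its log2 changes of 0.41 and 0.38 were under the 1.5-fold limit. The median change of the list at 30 µg/kg was 0.03, beside -0.02 for all genes.

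Genes of chylomicron assembly, which load lipid onto apolipoprotein B, were not called either. None of the 9 tested passed at any dose, and 1, 1 and 0 had an unadjusted edgeR p under 0.05 at 3, 10 and 30 µg/kg. Mttp, the lipid transfer protein, averaged 2911 CPM in vehicle and 2590 CPM at 30 µg/kg. Apoa1 and Apoa4, apolipoproteins of the same particles, had log2 changes of 0.34 (SE 0.20) and -0.27 (SE 0.21) at 30 µg/kg. The list's median there was -0.03.

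**Figure D4:**
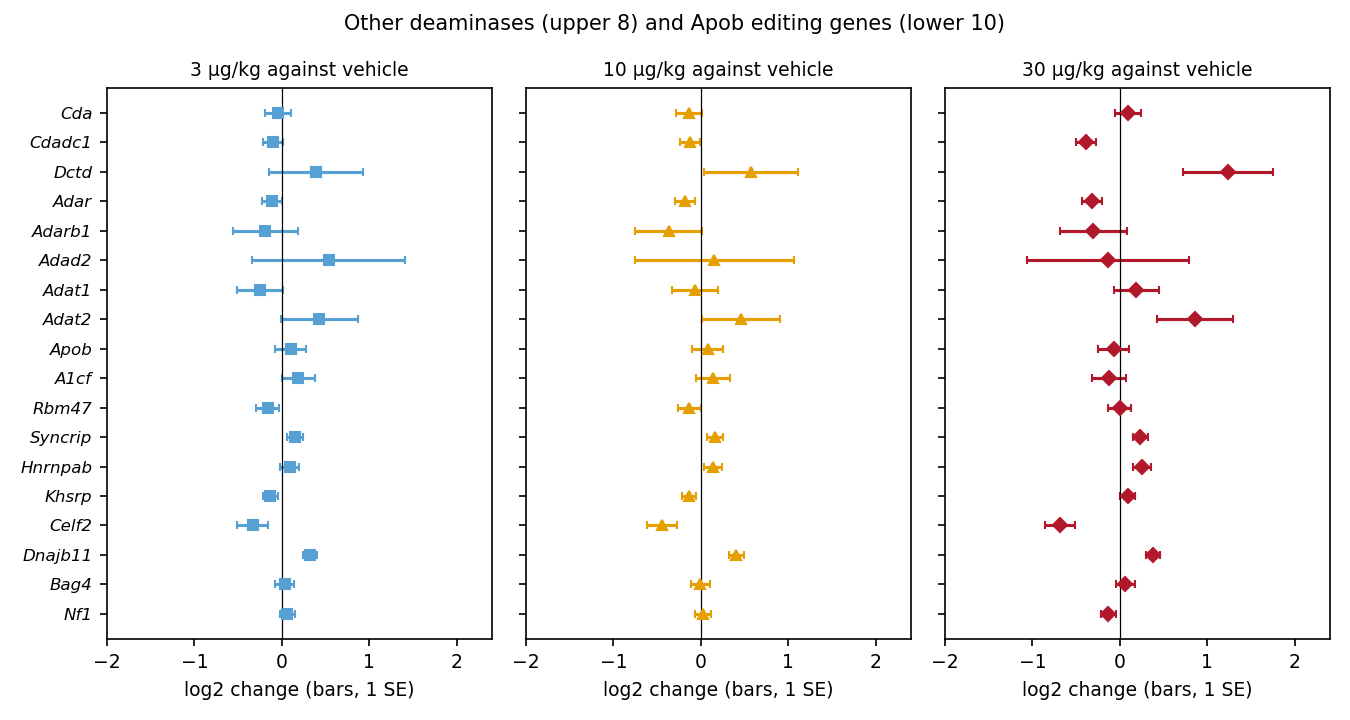
Log2 change against vehicle (horizontal axis, bars of 1 SE) at 3, 10 and 30 µg/kg for the 8 other deaminases tested (Cda to Adat2) and the 10 genes of Apob mRNA editing (Apob to Nf1). At 30 µg/kg Celf2 is the lowest point at -0.68 and Dctd the highest at 1.24, with a wide error at its low counts.

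Among 13 other cytidine, adenosine and tRNA deaminases, 8 were tested and none was called at any dose, with 0, 0 and 3 at an unadjusted edgeR p under 0.05. Cda, which salvages cytidine, averaged 69.3 CPM in vehicle and 74.2 CPM at 30 µg/kg. Cdadc1 had the lowest adjusted p of the list at 30 µg/kg, with 19.0 and 14.5 CPM (log2 change -0.39, SE 0.11, edgeR adjusted p 0.0661). Adar, the main RNA adenosine deaminase, averaged 96.9 and 77.4 CPM (log2 change -0.32, SE 0.11, edgeR adjusted p 0.123), and Dctd, the dCMP deaminase, 1.26 and 2.94 CPM (log2 change 1.24, SE 0.52, edgeR adjusted p 0.185). The family member Apobec4 had no count in any library, and Adat3 was not analysed here.

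Uracil repair genes, which remove the product of DNA cytidine deamination, were not called among 7 tested at any dose, with 0, 1 and 1 at an unadjusted edgeR p under 0.05 at 3, 10 and 30 µg/kg. Ung, the main uracil glycosylase, averaged 2.72 CPM in vehicle and 3.45 CPM at 30 µg/kg, Smug1 8.21 and 8.28 CPM, and Tdg 24.9 and 22.1 CPM. The list's median log2 change at 30 µg/kg was 0.26.

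Antiviral factors are the class to which Apobec3 belongs by role. Of 15 tested, none passed at 3 or 10 µg/kg and 2 did at 30 µg/kg, where 3.97% of all genes were called. At an unadjusted edgeR p under 0.05 there were 1, 3 and 8 of the 15 at 3, 10 and 30 µg/kg. With no share of all genes at that p, these counts were not read as a result about the list. Ifitm2, which blocks viral entry, went from 6.09 to 15.3 CPM (log2 change 1.32, SE 0.24, edgeR adjusted p 0.00546). Ifit1, which binds foreign RNA caps, went from 62.0 to 37.0 CPM (log2 change -0.74, SE 0.19, edgeR adjusted p 0.0404), and lost its call without any 1 of the 3 vehicle libraries, replicate 2 or replicate 3 of 30 µg/kg (0.0638 to 0.126). Samhd1, Bst2 and Zc3hav1 had log2 changes of -0.24, -0.38 and -0.10. The median of the list was -0.37, with 4 of 15 above 0.

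AhR genes were read as the reference for dose. Of 8 tested, 4 were called higher at 30 µg/kg (Ahrr, Cyp1a1, Cyp1b1 and Tiparp) and 3 at 10 µg/kg (the same without Tiparp), where 0.487% of all genes were called higher. Ahrr, the AhR repressor, had means of 3.60, 4.15, 27.3 and 52.2 CPM over vehicle, 3, 10 and 30 µg/kg, and its log2 change of 3.85 (SE 0.21) at 30 µg/kg stood beside 3.88 for Apobec2. Cyp1b1, a further P450 enzyme, went from 2.21 to 103 CPM. Tiparp averaged 38.8 and 101 CPM in vehicle and at 30 µg/kg, and Ahr itself 23.5 and 34.4 CPM (edgeR adjusted p 0.0723). Among these 8 genes at 3 µg/kg, only Cyp1a2 was called, with 0 counts in all 3 libraries against 15 to 50 in vehicle, which is at least 7.32-fold lower against a floor of 3 counts per library, and that call was lost with the compared groups alone (edgeR adjusted p 0.205). Between 10 and 3 µg/kg, Ahrr, Cyp1a1 and Cyp1b1 were called higher, where Apobec2 was not, and the call of Cyp1a1 was lost without replicate 2 of 3 µg/kg (edgeR adjusted p 0.0628) and with the compared groups alone (0.0864). That Apobec2 changed less than these genes there was not tested.

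Genes whose pattern was most like that of each member were ranked by Pearson r of log2 CPM over the 12 libraries. These correlations are descriptions: the points share dose, clock score and depth. For Apobec2 the first was Arl15, with r = 0.97 over all libraries and 0.90 after removal of group means. Arl15, a small GTPase, averaged 15.5, 21.2, 29.8 and 33.0 CPM over the doses. Its lower value in replicate 2 of 30 µg/kg (25.9 against 34.6 and 38.4 CPM) is part of the likeness by which it was picked. Next came Nagk (0.96), Insl6 (0.94), Nans (0.92), Txn1 (0.92), Ildr1 (0.92), Coq6 (0.91), Cfl1 (0.91), Mmab (0.91) and Nsrp1 (0.91). Nagk and Nans both handle amino sugars, Txn1 is thioredoxin, and Ildr1 is a tricellular junction protein that went from 3.15 to 38.3 CPM.

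The same measure for AhR targets, which were not picked by r, is given as values only. Ahrr had r = 0.88 over all libraries and 0.37 within groups, Cyp1b1 0.86 and -0.03, and Cyp1a1 0.83 and -0.32. Acta1 had 0.83 and -0.11. Among all genes tested, 16 had r over 0.9 with Apobec2.

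For Apobec1 the first genes were Snx16 (r = 0.93), Coro2a (0.91), 1810013L24Rik (0.90), Parp4 (0.87), Cox11 (0.86), Picalm (0.85), Dnaja1 (0.85), Cdc42se1 (0.85), Gnl1 (0.85) and Trp53inp2 (0.84). For Apobec3 they were Rgs9 (0.91), 1700028E10Rik (0.88), Scarna6 (0.87), Cyp2c40 (0.86), Nip7 (0.86), Gm27184 (0.85), Gm2830 (0.84), Unc93b1 (0.84), AU020206 (0.83) and Bmp4 (0.82), of which several were near the detection floor. The members were unlike one another, with r = 0.17 between Apobec1 and Apobec2, -0.29 between Apobec1 and Apobec3, and 0.13 between Apobec2 and Apobec3.

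Neighbouring genes that had a count in at least 1 library were read beside each member. Within 100 kb of Apobec2, 5 of 6 such genes were tested and none was called, with log2 changes at 30 µg/kg from -0.77 (Tspo2) to 0.13 (Nfya). The nearest, Oard1, 1965 bases away, averaged 15.2 CPM in vehicle and 16.2 CPM at 30 µg/kg. Around Apobec3, 3 of 4 neighbours were tested and none was called, among them Cbx7 with 14.3 and 14.9 CPM. None of the 8 genes around Apobec1 passed the filter.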

How the data were processed

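Gene counts from 12 RNA-seq libraries of proximal ileal epithelium were analysed, 3 per group, grouped by the labels. Per the labels, total RNA went through a commercial mouse RNA-seq kit with an added DNase step. What the authors deposited are counts per Ensembl gene, neither scaled nor filtered. The submitters' processing notes name Trimmomatic 0.33, TopHat2 2.1.0, SAMtools 1.2.0, HTSeq 0.6.1 and build GRCm38, while the annotation release and the strand setting are not given in the sources used here. Reads assigned to no gene were left out of library sizes. Of 46078 genes, 45143 matched GENCODE M21 by identifier, and the others held 0.749% of the counts.

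Counts were tested with edgeR 4.0.16 in R 4.3.3 (filterByExpr, TMM factors, 1 quasi-likelihood fit of 4 groups). A gene was called at a Benjamini-Hochberg adjusted p under 0.05 over 15823 genes and a change of at least 1.5-fold. Standard errors came from the F statistic. Log2 CPM used a prior count of 2. The script was tested on simulated data. Promoter sequences are from RefSeq (GRCm38.p6). Named genes were the members, the first 3 and the called genes of each list, the 10 most alike by r, and neighbours within 100 kb that had a count. Some others, among them Cdadc1, Adar, Dctd and Dnajb11, were named outside this rule. A gene of the deaminase list is not reported here. Members and lists were chosen with earlier results of these data known. Alternatives were median-of-ratios and upper-quartile factors, other filters, DESeq2 1.42.0, limma-voom (limma 3.58.1), covariates, compared groups alone and single libraries left out.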

Additional observations from a re-analysis of the deposited data

How the results depend on the processing

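Apobec2 kept its direction in each comparison under the 14 alternatives that gave a value. It had none when at least 10 counts were required in every library, since it then left the test. Its log2 change ranged from 0.75 to 1.72 at 3 µg/kg, from 2.50 to 3.56 at 10 µg/kg and from 3.57 to 4.47 at 30 µg/kg, the highest values of all 3 coming without replicate 1 of vehicle. With single libraries left out, Apobec1 ranged from -0.15 to 0.29 at 3 µg/kg, from -0.045 to 0.27 at 30 µg/kg and from -0.067 to 0.38 between 10 and 3 µg/kg, where a further value was -0.016. Apobec3 ranged from -0.25 to 0.016 at 3 µg/kg and from -0.068 to 0.24 at 30 µg/kg, where a further value was -0.0073, so these signs rest on single libraries. Neither gene was called under any alternative at 3 or 10 µg/kg or between 10 and 3 µg/kg. Of 26 calls of list genes, 18 held under every alternative.

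Counts of called genes depended more on the setting, and the cause was not tested. At 3 µg/kg the count was 36 as reported, 71 without the low-count filter, 23 with at least 10 counts in every library, 18 with the index as a covariate, 84 with DESeq2 and 6 with the compared groups alone. Leaving out 1 library gave 19 to 162, the highest without replicate 1 of 3 µg/kg. At 10 µg/kg it was 97, and 215 without the filter, 59 with the index, 262 with DESeq2 and 45 to 59 with 1 library left out. Between 10 and 3 µg/kg it was 25, and 43 without the filter, 13 with at least 10 counts, 43 with DESeq2 and 9 to 21 with 1 library left out. At 30 µg/kg all counts were within 1.5 times 628. No paired analysis was possible because no label pairs animals across groups. Blocking on the index sequence, which occurs once per group, is the index setting given above. Depth limits Apobec2 most in vehicle, where 2 libraries held 7 counts each.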

Other observations

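The leukocyte marker Ptprc went from a mean of 73.9 CPM in vehicle to 45.0 CPM at 30 µg/kg (log2 change -0.71, SE 0.16, edgeR adjusted p 0.0229), a call lost without replicate 2 or 3 of vehicle or replicate 1 or 2 of 30 µg/kg (edgeR adjusted p 0.0617 to 0.0829), with the index as a covariate (0.0531) and with the compared groups alone (0.0550).

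Fabp6, the ileal bile acid binding protein, had 38.3, 32.5 and 22.9 CPM in the 3 libraries of 3 µg/kg and at most 0.306 CPM in every other library (log2 change 8.68 at 3 µg/kg against vehicle, edgeR adjusted p 3.91e-07). Of 7 smooth muscle markers, none was called at any dose, and their median log2 change at 10 µg/kg was -1.93. All 7 had an unadjusted edgeR p under 0.05 at 10 µg/kg, and the share of all genes at that p is not given here. The part of Fabp6 or of the smooth muscle markers in the Apobec values was not tested.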
